A study of Mus musculus with 3 samples.

Results

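Cytochrome c oxidase is the last complex (complex IV) of the mitochondrial respiratory chain. It hands electrons from cytochrome c to oxygen and pumps protons across the inner membrane. Its catalytic core is encoded by mitochondrial DNA, and nuclear genes encode the subunits around that core. Some of these nuclear subunits exist as a ubiquitous-type isoform and a second isoform best known from heart and skeletal muscle, lung or testis. The genes described here are the 10 members of 5 such isoform pairs, chosen by their symbol in the array platform's annotation. They are Cox4i1 and Cox4i2, Cox6a1 and Cox6a2, Cox6b1 and Cox6b2, Cox7a2 and Cox7a1, and Cox8a and Cox8b. They were measured by 16 of the 45101 probe sets on each array, and are 10 of the 18194 genes that the annotation pairs with a probe set.

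The cells were 3 subsets of dendritic cells (DC), all naive and wild type, taken from spleens of healthy female C57BL/6 mice that were 6 to 8 weeks old. Plasmacytoid DC (pDC), known as producers of type I interferon, were compared with CD8+ and CD11b+ conventional DC (cDC), which present antigen to T cells. T and B cells were removed with magnetic beads before the flow cytometric sort of every subset, and RNA of 5 to 8 mice was pooled for the 1 array of each subset. With no replicate array there was no spread between animals to test against, so every difference below is a difference between 3 arrays and carries no p-value.

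The signal is the authors' deposited intensity. A background level of 111 was taken from 87 probe sets of chemosensory receptor genes (olfactory, vomeronasal, taste and trace amine), which spleen cells should not express. Values below it were set to it, and a fold against it is written as at least that size. A gene was called higher or lower where the arrays differed at least 2-fold and the brighter one exceeded background. Itgam, encoding CD11b, read 63.6 in pDC, 64.3 in CD8+ cDC and 2787 in CD11b+ cDC. Cd8a read 32231 in pDC, 203567 in CD8+ cDC and 702 in CD11b+ cDC, so both sort markers were highest in the subset named for them. Of 13 pDC marker genes measured, 11 were higher in pDC than in CD8+ cDC and 12 higher than in CD11b+ cDC. The ratio of 3' to 5' control probe sets of Actb was 5.71 in pDC, 4.08 in CD8+ cDC and 2.91 in CD11b+ cDC. That of Gapdh was 16.2 in pDC, 17.6 in CD8+ cDC and 9.68 in CD11b+ cDC.

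The 3 subsets shared 1 set of ubiquitous-type isoforms and differed in a single tissue-type isoform, Cox6a2. Of the 10 genes, 6 were above background on at least 1 array. Cox6a2 was called higher in pDC than in CD8+ cDC and than in CD11b+ cDC, at least 414-fold each time, and 0 members were called lower in pDC. Among all genes above background on either array, 16.0% were called higher in pDC than in CD8+ cDC and 14.8% lower. Against CD11b+ cDC these shares were 15.0% and 14.3%. Between CD8+ and CD11b+ cDC, 0 of the 5 members above background were called in either direction, where 9.84% of all genes were called higher in CD8+ cDC and 10.3% lower. With so few members, these counts describe the genes singly and say nothing of the family as a set. Because each array read a pool of sorted cells, fewer cells with a transcript and less transcript per cell cannot be told apart.

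**Figure D1:**
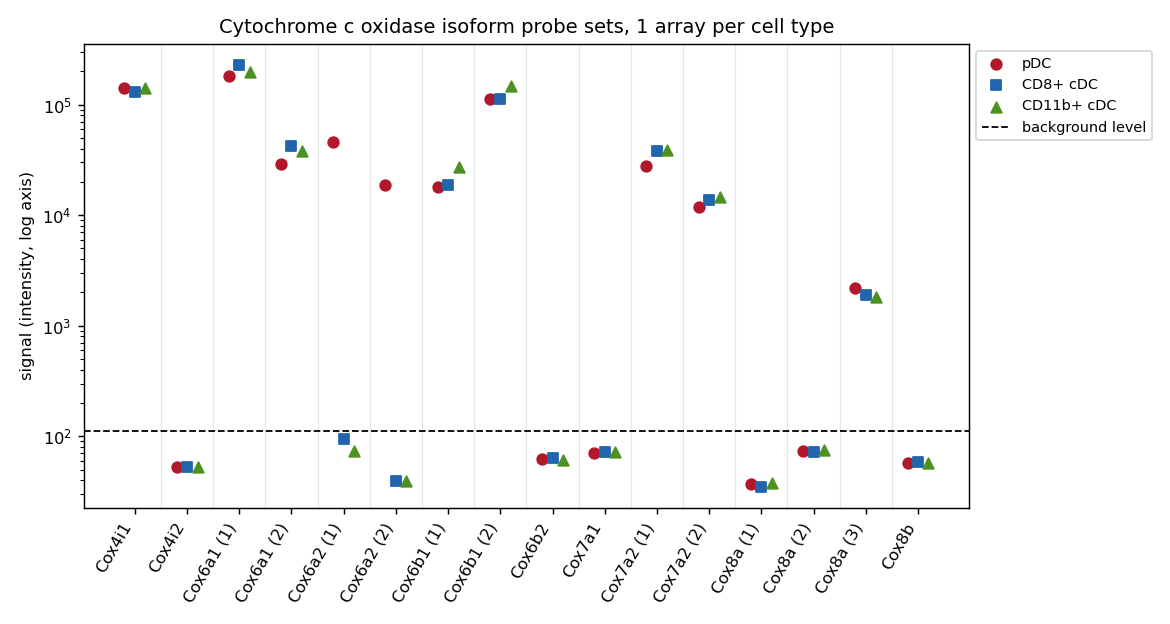
Signals of the 16 probe sets of the 10 isoform genes on a log axis, 1 point for each array (pDC, CD8+ cDC, CD11b+ cDC), with the background level of 111 dashed and probe sets of 1 gene numbered in brackets. The 3 points of a gene lie close together or all below background except at both probe sets of Cox6a2, where pDC alone is above background. Brightness is not comparable between probe sets.

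Subunit 4 is a regulatory subunit to which ATP binds. Its ubiquitous isoform gene Cox4i1 read 140051 in pDC, 129044 in CD8+ cDC and 141285 in CD11b+ cDC. The highest of these was 1.09 times the lowest, the smallest range among the 8 ubiquitous-type probe sets above background. Cox4i2, the isoform known from lung and from the response to low oxygen, read 52.8 in pDC, 53.1 in CD8+ cDC and 52.6 in CD11b+ cDC and was below background on all 3 arrays.

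Subunit 6a sits where the 2 monomers of the complex meet, and both isoforms are described below because their patterns part. Cox6a1, the ubiquitous or liver-type isoform gene, read 182893 in pDC, 227656 in CD8+ cDC and 195477 in CD11b+ cDC at its brighter probe set. The dimmer one read 29309 in pDC, 42611 in CD8+ cDC and 37986 in CD11b+ cDC. Both placed pDC lowest and CD8+ cDC highest, with pDC lower than CD8+ cDC by a log2 difference of -0.32 at the brighter probe set and -0.54 at the dimmer.

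Cox6a2, the heart and skeletal muscle isoform gene, read 46070.0 in pDC, 94.0 in CD8+ cDC and 74.1 in CD11b+ cDC. Its second probe set read 18798 in pDC, 39.4 in CD8+ cDC and 39.1 in CD11b+ cDC. The second is of a class (_x_at) that Affymetrix marks as open to hybridising with related transcripts, and the first is not. Both probe sets were therefore far above background in pDC and below it in both conventional subsets. The pDC signal was at least 414-fold above the conventional subsets at the first probe set and at least 169-fold at the second. Set beside its partner, the log2 difference of pDC from CD8+ cDC was at least 8.69 for Cox6a2 and -0.32 for Cox6a1. From CD11b+ cDC it was at least 8.69 for Cox6a2 and -0.10 for Cox6a1. The difference held for each alternative in background level, scaling and choice of probe set that was run.

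Subunit 6b links the monomers of the complex on the side where cytochrome c docks. Cox6b1 read 113458 in pDC, 111962 in CD8+ cDC and 146280.4 in CD11b+ cDC at its brighter probe set. At the other it read 18132 in pDC, 18787 in CD8+ cDC and 27390 in CD11b+ cDC. CD11b+ cDC were highest at both, and pDC differed from them by -0.37 and -0.60 (log2). The testis isoform gene Cox6b2 read 62.0 in pDC, 63.6 in CD8+ cDC and 61.6 in CD11b+ cDC and was below background everywhere.

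Subunit 7a lies within the membrane and comes as a liver type, Cox7a2, and a heart type, Cox7a1. Cox7a2 read 27880.2 in pDC, 38181 in CD8+ cDC and 39127 in CD11b+ cDC at its brighter probe set. At the other it read 11881 in pDC, 13764 in CD8+ cDC and 14509 in CD11b+ cDC. The pDC array was the lowest of the 3 at both probe sets, with log2 differences between -0.21 and -0.49. Cox7a1 read 71.2 in pDC, 71.9 in CD8+ cDC and 71.5 in CD11b+ cDC, below background on all 3 arrays.

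Subunit 8 is a small membrane-spanning protein, with the ubiquitous isoform gene Cox8a and, in mouse, the heart and muscle isoform gene Cox8b. Cox8a read 2209 in pDC, 1906 in CD8+ cDC and 1805 in CD11b+ cDC at 1 of its 3 probe sets. The other probe sets of Cox8a lay between 35.1 and 75.2, below background on every array. The measured signal of Cox8a thus came from a single probe set, of a class (_x_at) that Affymetrix marks as open to hybridising with related transcripts. Cox8b read 56.9 in pDC, 58.3 in CD8+ cDC and 56.9 in CD11b+ cDC and was below background.

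Taken as a group, the 5 ubiquitous-type genes stayed within 2-fold across the arrays at all 8 probe sets above background, the highest array being 1.09 to 1.51 times the lowest. Their median log2 difference was 0.02 for pDC minus CD8+ cDC, -0.10 for pDC minus CD11b+ cDC and -0.04 for CD8+ minus CD11b+ cDC. Over all genes above background these medians were 0.00, 0.01 and 0.01. Between probe sets of 1 gene the log2 differences varied by an SD of 0.91, 0.87 and 0.75 for these pairs over 4966 genes, which exceeds each difference of these 5 genes. Scaling the arrays on their hybridization spike-ins made the medians 0.67, -0.48 and -1.08. Cox4i1, Cox6b1 and Cox7a2 were then called lower in CD8+ cDC than in CD11b+ cDC, while the median of all genes moved to 0.66, -0.33 and -0.99. The direction of small differences of these genes thus depended on the scaling. The probe sets of Cox4i1, Cox6a1 and Cox6b1 that read over 65535 exceed the largest reading of a 16-bit scanner, and no label says whether their spots were saturated.

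The 4 tissue-type isoforms other than Cox6a2, which are Cox4i2, Cox6b2, Cox7a1 and Cox8b, were each measured by 1 probe set and were below background on all 3 arrays. Of all genes, 39.5% were below background on every array. Values of these genes differed between arrays by at most 1.03 times. Near-equal values below background are a property of the deposited data: over the 22273 probe sets below background on all arrays, the highest array was typically 1.01 times the lowest (median). No difference between subsets was detectable for these 4 genes at this signal over background, which does not show that they were absent.

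Sequence around the annotated starts of the genes was compared between isoforms above background on all arrays and isoforms below background. RefSeq promoter windows of GRCm38.p6, from 250 bases before to 50 after a gene's start, were matched for 7 of the 10 genes. Cox4i1, Cox4i2 and Cox6a2 had no window, so these sequences do not bear on the Cox6a2 result. Printed are Cox8a and Cox8b as a pair of 1 subunit with a detected and an undetected isoform, and Cox6a1 as the partner of Cox6a2. They lie at chr5:115348909-115349208, minus strand (Cox6a1), chr19:7217567-7217866, minus strand (Cox8a), and chr7:140900397-140900696, minus strand (Cox8b). Capitals mark matches, on either strand, to the ETS factor core CCGGAAG, the NRF1 core GCATGCGC, the E-box CAGCTG and the TATA box TATAAA, which were picked with these windows in view.
Cox6a1: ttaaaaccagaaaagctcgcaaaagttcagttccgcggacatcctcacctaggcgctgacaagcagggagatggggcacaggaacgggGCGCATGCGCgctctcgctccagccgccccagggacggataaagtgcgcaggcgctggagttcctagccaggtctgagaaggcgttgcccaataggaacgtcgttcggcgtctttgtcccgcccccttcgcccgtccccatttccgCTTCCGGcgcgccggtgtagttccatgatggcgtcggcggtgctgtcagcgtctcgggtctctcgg
Cox8a: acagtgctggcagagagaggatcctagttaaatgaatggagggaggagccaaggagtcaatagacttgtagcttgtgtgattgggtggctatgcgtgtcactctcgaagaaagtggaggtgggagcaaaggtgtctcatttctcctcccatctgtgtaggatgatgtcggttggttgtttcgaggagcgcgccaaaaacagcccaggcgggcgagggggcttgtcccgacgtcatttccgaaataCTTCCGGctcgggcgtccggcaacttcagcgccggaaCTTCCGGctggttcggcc
Cox8b: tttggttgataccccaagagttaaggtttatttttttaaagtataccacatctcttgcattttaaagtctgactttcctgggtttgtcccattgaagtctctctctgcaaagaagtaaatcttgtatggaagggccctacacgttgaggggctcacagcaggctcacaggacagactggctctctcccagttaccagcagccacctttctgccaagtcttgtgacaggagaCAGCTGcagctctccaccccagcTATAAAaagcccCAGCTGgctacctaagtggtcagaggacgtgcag

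The ETS core, a site type bound by the nuclear respiratory factor GABP, occurred in the windows of Cox6a1, Cox6b1 and Cox8a, the last with 2 matches, and in 8.86% of all 32851 windows. In the Cox6a1 window the NRF1 core matched once on each strand, at 1 palindromic stretch. This core was present in 2.71% of windows. The Cox8b window held 2 E-boxes and 1 match to the TATA box sequence, found in 16.3% and 13.6% of windows. That TATAAA match began 4 bases after the annotated start and 1 E-box 16 bases after it. Likewise, 1 of the 2 ETS cores of Cox8a began 32 bases after its start. The windows of ubiquitous-type Cox7a2 and of tissue-type Cox6b2 and Cox7a1 held no match to any of these sequences. CpG dinucleotides numbered 32 in the Cox6a1 window, 20 in Cox7a2, 19 in Cox8a and 17 in Cox6b1. They numbered 10 in Cox6b2, 7 in Cox7a1 and 2 in Cox8b, so each of the 4 ubiquitous-type windows held more than each of the 3 tissue-type windows, beside a median of 7 over all windows. These counts describe letters in a window and show neither binding nor methylation.

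Cox6a2 stood among the genes furthest apart in pDC. At 4-fold or more over the brighter conventional subset there were 470 genes, 4.27% of those above background, and 10 of them had a larger difference than Cox6a2. The difference of Cox6a2 is a lower bound set by its pDC signal over background. Its rank thus partly compares brightness between probe sets. Like Cox6a2, 302 genes (2.74%) were above background in pDC and below it in both conventional subsets. The 6 genes with the most similar profile over the 3 arrays, by Euclidean distance between centred log2 values, were Cmah, Ptprf, Dntt, Atp1b1, Havcr1 and Ctsl. The distances lay between 0.02 for Cmah and 0.72 for Ctsl. Cmah, whose enzyme makes the sialic acid Neu5Gc, read 46889 in pDC, 52.9 in CD8+ cDC and 52.2 in CD11b+ cDC at its brightest probe set. Its other probe sets were higher in pDC by less, from at least 1.61-fold to at least 63.0-fold over the brighter conventional subset. Dntt, whose product adds untemplated bases to rearranging antigen receptor genes, read 56845 in pDC, 65.4 in CD8+ cDC and 64.6 in CD11b+ cDC at its brightest probe set. At its dimmest it was at least 7.53-fold higher in pDC. These profiles rest on 3 points each, and those of Cmah, Dntt and Havcr1 are fixed by 1 value because both conventional arrays lay at background.

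**Figure D2:**
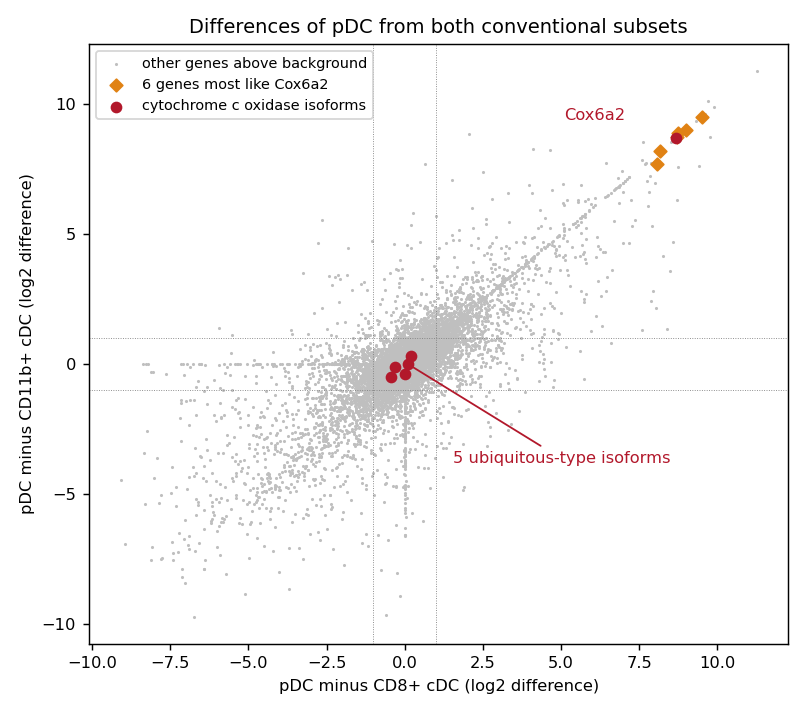
Log2 difference of pDC from CD8+ cDC (horizontal) and from CD11b+ cDC (vertical) for genes above background, with the 6 isoform genes above background in red, the 6 genes most like Cox6a2 in orange and dotted lines at 2-fold. Cox6a2 lies at 8.69 on both axes, and the 5 ubiquitous-type genes lie inside the dotted square.

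The genes next to Cox6a2 on its chromosome did not share its pattern as a block. In the RefSeq gene table of GRCm38.p6 the nearest measured gene on one side was 4931431B13Rik, a long noncoding RNA. It read 670 in pDC, 93.0 in CD8+ cDC and 91.9 in CD11b+ cDC, at least 6.03-fold higher in pDC than in either. The next measured gene on that side, Itgax, encodes CD11c, the integrin of conventional DC, and had the opposite order. It read 27138 in pDC, 82543 in CD8+ cDC and 152080.1 in CD11b+ cDC, which made the conventional subsets 3.04-fold and 5.60-fold higher than pDC. Itgam, the sort marker described above, came next, and then Trim72, a membrane repair gene of striated muscle, which was below background on all arrays. On the other side 9130023H24Rik read 2487 in pDC, 1483 in CD8+ cDC and 1429 in CD11b+ cDC, and Armc5 read 7940.2 in pDC, 6119 in CD8+ cDC and 4816 in CD11b+ cDC. Both were highest in pDC by less than 2-fold. Tgfb1i1 was below background on all arrays and Slc5a2 read between 589.5 and 592.5 in the 3 subsets. Of the 8 measured neighbours, 4931431B13Rik was the 1 called higher in pDC than in both conventional subsets.

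**Figure D3:**
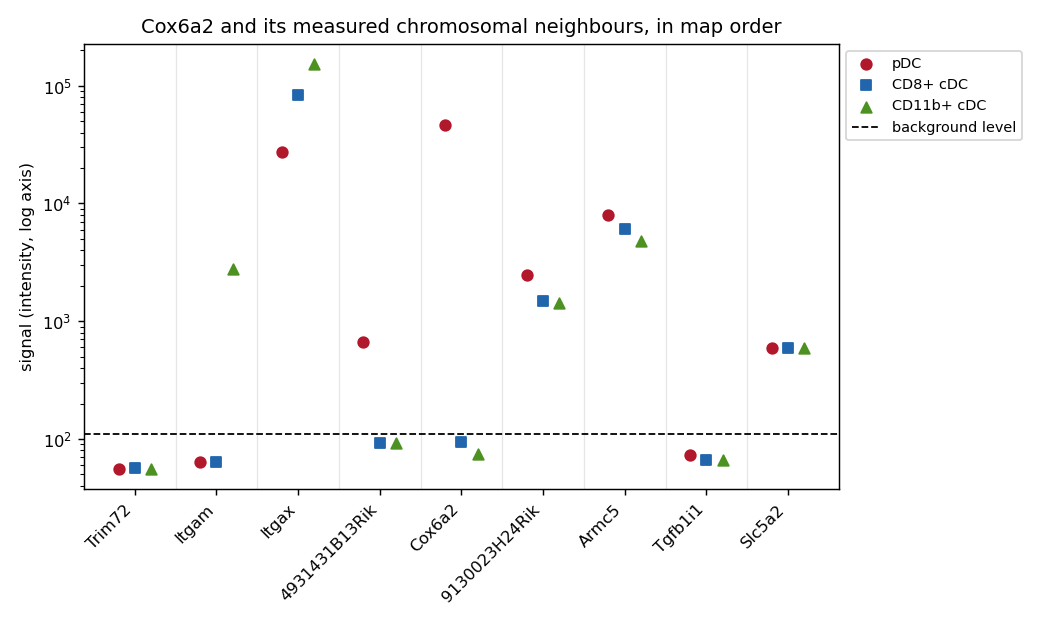
Signals of Cox6a2 and the 4 nearest measured genes on each side, in map order, on a log axis with the background level of 111 dashed and 1 point for each array. pDC alone is above background at Cox6a2 and 4931431B13Rik, while Itgax and Itgam are highest in CD11b+ cDC.

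Other transcripts of striated muscle were examined beside Cox6a2, as a list of 39 measured genes. Of these, 24 were below background on every array, and 10, 10 and 9 were above it in pDC, CD8+ cDC and CD11b+ cDC. Among those below background everywhere were the creatine kinase gene Ckm, the skeletal actin gene Acta1, the myoglobin gene Mb, the myosin heavy chain genes Myh1, Myh2, Myh4 and Myh7 and the fast troponin T gene Tnnt3. Their signals were at most 95.3. Other contractile and calcium-handling genes were above background on all 3 arrays. Ryr1, the calcium release channel of skeletal muscle, read 9504 in pDC, 7882 in CD8+ cDC and 16292 in CD11b+ cDC. The fast troponin I gene Tnni2 read 3905 in pDC, 7947 in CD8+ cDC and 4044 in CD11b+ cDC at its brightest probe set, and 1768 in pDC, 1083 in CD8+ cDC and 602 in CD11b+ cDC at another. Tnni3, its cardiac relative, read 208 in pDC, 530 in CD8+ cDC and 803 in CD11b+ cDC, and the fast myosin light chain gene Mylpf 219 in pDC, 406 in CD8+ cDC and 191 in CD11b+ cDC. These 4 genes were thus detected in all subsets, and none was called higher in pDC than in both conventional subsets. The list's summed signal was 48308 in pDC, 43118 in CD8+ cDC and 85062 in CD11b+ cDC. Without Eno3, the gene with the largest signal in CD11b+ cDC, the sum was 44535 in pDC, 20689 in CD8+ cDC and 24466 in CD11b+ cDC. Without Atp2a1 and Pgam2, described below, the pDC sum was 20478.5 with Eno3 kept. It was then the lowest of the 3, with Eno3 kept or left out. The order of the sums thus depended on single genes, and the part of muscle transcripts in the Cox6a2 result was not tested.

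Yet 2 genes of that list had the pattern of Cox6a2. Atp2a1, encoding SERCA1, the calcium pump of fast muscle sarcoplasmic reticulum, read 13240.1 in pDC, 64.7 in CD8+ cDC and 64.4 in CD11b+ cDC. Pgam2, encoding the muscle form of the glycolytic enzyme phosphoglycerate mutase, read 14589 in pDC, 63.1 in CD8+ cDC and 62.2 in CD11b+ cDC. They were at least 119-fold and at least 131-fold higher in pDC than in either conventional subset, each at its only probe set. Eno3, encoding the muscle form of enolase, had the opposite order. It read 3773 in pDC, 22429 in CD8+ cDC and 60595 in CD11b+ cDC, which made the conventional subsets 5.95-fold and 16.1-fold higher than pDC. Tnnt2, the cardiac troponin T gene, was above background in CD8+ cDC alone at its brightest probe set. It read 85.6 in pDC, 902 in CD8+ cDC and 92.6 in CD11b+ cDC, at least 8.11-fold higher in CD8+ cDC than in either. A dimmer probe set of Tnnt2 was 3.05-fold higher in CD8+ cDC than in CD11b+ cDC. In all, 2 of the 13 muscle genes above background were called higher in pDC than in CD8+ cDC and 4 lower (median log2 difference -0.10). Against CD11b+ cDC 2 of 12 were higher and 2 lower (median -0.10). With spike-in scaling 2 were higher and 2 lower than in CD8+ cDC, the calls of Tnni2 and Tnni3 being lost, and 2 were higher and 3 lower than in CD11b+ cDC.

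**Figure D4:**
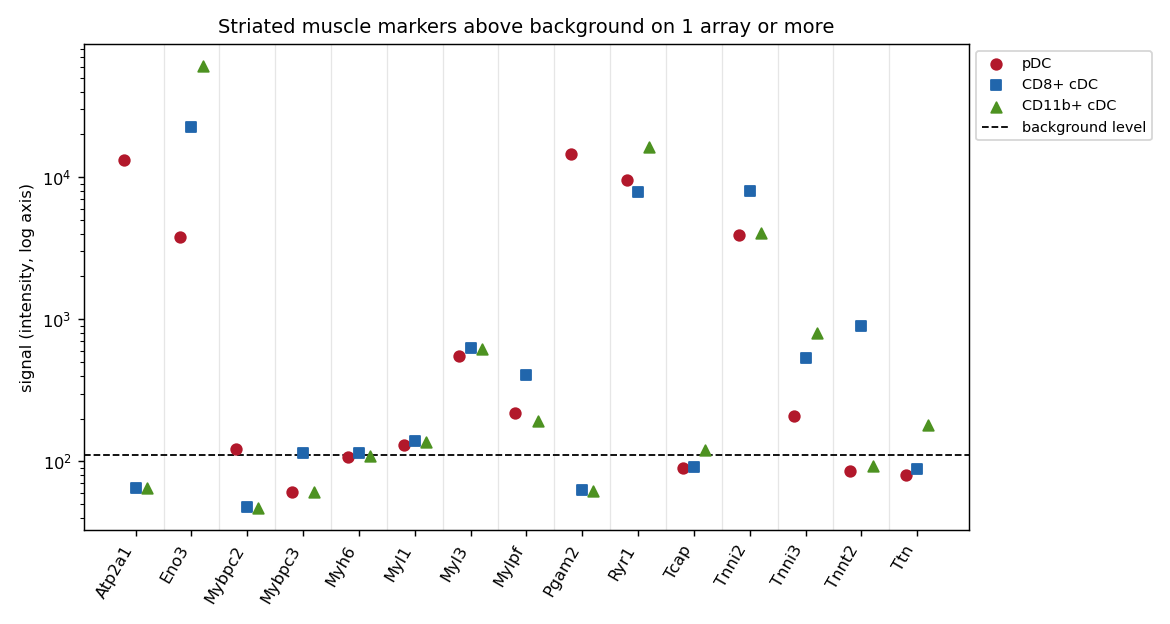
Signals of the 15 striated muscle genes above background on at least 1 array, on a log axis with the background level of 111 dashed and 1 point for each array. Atp2a1 and Pgam2 are above background in pDC alone, Tnnt2 is above it in CD8+ cDC alone, and Eno3 is lowest in pDC.

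Markers of other blood cells were set beside Cox6a2 in the same way. Of 8 T cell markers, 2 were above background on each array, and the CD3 genes Cd3d, Cd3e and Cd3g were below it on all 3. The list's summed signal was 153331 in pDC, 3550 in CD8+ cDC and 8626 in CD11b+ cDC, of which Il7r, the interleukin 7 receptor gene, made up 152617 in pDC. Without Il7r the sum was 714 in pDC, 810.4 in CD8+ cDC and 3205 in CD11b+ cDC. Of 7 plasma cell markers, 6, 4 and 5 were above background in pDC, CD8+ cDC and CD11b+ cDC, and their summed signal was 185613 in pDC, 50224 in CD8+ cDC and 69236 in CD11b+ cDC. The largest share came from Xbp1, a factor of the unfolded protein response, which read 120877.0 in pDC, 47954 in CD8+ cDC and 42657 in CD11b+ cDC. Without it the sum was 64736 in pDC, 2271 in CD8+ cDC and 26580 in CD11b+ cDC. Mzb1, an endoplasmic reticulum protein of antibody-secreting cells also known from pDC, read 47739 in pDC, 89.2 in CD8+ cDC and 249 in CD11b+ cDC. Of 8 B cell markers, 3, 3 and 4 were above background in the same 3 subsets, and Cd79a was below it on all arrays. Their summed signal was 11493 in pDC, 21367 in CD8+ cDC and 94410.1 in CD11b+ cDC, where Cd22 made up 78539.6. The sums of NK cell, macrophage and monocyte, neutrophil and erythroid markers were each highest in CD11b+ cDC. For the neutrophil and erythroid lists pDC ranked above CD8+ cDC. The plasma cell sum was thus highest in pDC, as Cox6a2 was, with or without Xbp1. Mzb1 made up 47739 of the 64736 in pDC, and with both genes left out CD11b+ cDC had the highest sum. The T cell sum was highest in pDC with Il7r but not without it. The part of these cell types in the result was not tested.

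Genes known to act on the tissue-type isoforms or on the response to oxygen were described as a list of 16 measured genes. Against CD8+ cDC 4 of the 11 above background were higher in pDC and 2 lower (median log2 difference 0.69). Against CD11b+ cDC 4 were higher and 0 lower (median 0.67). Among all genes 16.0% were higher and 14.8% lower against CD8+ cDC, and 15.0% and 14.3% against CD11b+ cDC. Mef2c, a transcription factor of muscle and lymphoid genes, read 79491 in pDC, 3611 in CD8+ cDC and 31520.3 in CD11b+ cDC, and all 5 of its probe sets had this order. It was 22.0-fold higher in pDC than in CD8+ cDC and 2.52-fold higher than in CD11b+ cDC. Cxxc5, a zinc finger protein that binds an oxygen-responsive element of the Cox4i2 promoter in human cells, read 39521 in pDC, 583 in CD8+ cDC and 479 in CD11b+ cDC. It was 67.8-fold and 82.6-fold higher in pDC, while Cox4i2 itself stayed below background.

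Mef2d, a relative of Mef2c, was 3.07-fold and 2.39-fold higher in pDC at its brightest probe set and 1.07-fold and 1.01-fold at its dimmest. The oxygen sensor gene Egln1 was 2.03-fold and 2.09-fold higher at its brighter probe set and 1.46-fold and 1.43-fold, short of a call, at the other. Rbpj, the DNA-binding partner of Notch and another factor at the human COX4I2 promoter, was lower in pDC than in CD8+ cDC, which exceeded it 3.41-fold. So was Vhl, which marks HIF1A for degradation, with CD8+ cDC exceeding pDC 3.09-fold. The myogenic factor genes Myod1 and Myog were below background. With spike-in scaling 8 of these genes were higher in pDC than in CD8+ cDC and 1 was lower, Rbpj, as the call of Vhl was lost (log2 difference -0.97). Against CD11b+ cDC 1 was then higher and 1 lower, again Rbpj, and Mef2c, Mef2d and Egln1 fell short of 2-fold. Over all genes pDC then held 78.0% of the calls against CD8+ cDC (median 0.66) and 33.4% against CD11b+ cDC (median -0.33).

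As deposited, the rest of the respiratory chain was close to level between the subsets, as the ubiquitous-type isoforms were. Of 68 subunit genes measured (complexes I, II, III and V and the other subunits of complex IV), 65 were above background. Against CD8+ cDC 0 were higher in pDC and 1 lower (median log2 difference -0.14). Against CD11b+ cDC 0 were called (median -0.11). The 1 gene called lower was Atpif1, encoding the inhibitor of ATP synthase, which read 35622 in pDC, 169144 in CD8+ cDC and 49783 in CD11b+ cDC, so that CD8+ cDC exceeded pDC 4.75-fold. Between CD8+ and CD11b+ cDC 1 was called higher in CD8+ cDC, again Atpif1, and 0 lower (median 0.03). With spike-in scaling 9 of the 65 were higher in pDC than in CD8+ cDC and 7 lower than in CD11b+ cDC. The medians of all genes for these pairs were then 0.66 and -0.33. With that scaling 34 were lower in CD8+ cDC than in CD11b+ cDC (median -1.01), where the median of all genes was -0.99. No gene of the 68 was 4-fold higher in pDC than in both conventional subsets, as Cox6a2 was.

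Within complex IV, Cox5a read 141496 in pDC, 200369 in CD8+ cDC and 174296 in CD11b+ cDC. Cox5b and Cox6c had the same order, with log2 differences from CD8+ cDC of -0.37 and -0.45, each of these genes at its brightest probe set. Another probe set of Cox5a and of Cox6c was highest in CD11b+ cDC instead, and another of Cox5b was highest in pDC. The remaining ones above background kept the order. Cox7c was highest in pDC instead, at 3740 in pDC, 2778 in CD8+ cDC and 2504 in CD11b+ cDC. The testis isoform genes Cox7b2 and Cox8c were below background, as Cox6b2 was. Of 24 assembly and stability factors above background, 1 was higher in pDC than in CD8+ cDC, Pet100 (2.63-fold), and 1 lower, Cmc2 (3.14-fold higher in CD8+ cDC). The dimmer probe set of Pet100 gave 1.61-fold, short of a call, and opposed the brighter one against CD11b+ cDC (log2 differences of -0.73 and 0.73). Against CD11b+ cDC the copper chaperone genes Sco1 (2.08-fold) and Sco2 (2.68-fold) were higher in pDC and Cmc2 was lower. Sco1 and Sco2 have 1 probe set each, and Sco1 was not called higher than in CD11b+ cDC with spike-in scaling. With that scaling 8 assembly factors were higher in pDC than in CD8+ cDC and 0 lower, as the call of Cmc2 was lost (log2 difference -0.99). Against CD11b+ cDC 1 was then higher and 3 lower. All genes shifted in these directions too, with medians of 0.66 and -0.33. Scaling on oxidative phosphorylation genes ended the call of Cmc2 against CD11b+ cDC (-0.90).

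Other mitochondrial genes with tissue isoforms gave 1 call in each direction against CD8+ cDC among 10 above background (median -0.50), and 0 against CD11b+ cDC (median -0.19). Cycs, the somatic cytochrome c gene and the electron donor of complex IV, read 74415 in pDC, 219297 in CD8+ cDC and 112614 in CD11b+ cDC. CD8+ cDC exceeded pDC 2.95-fold, and its 3 probe sets above background had the same order. The pyruvate dehydrogenase gene Pdha1 was 2.08-fold higher in pDC than in CD8+ cDC at 1 probe set and 1.08-fold at the other. Of the 12 regulators of mitochondrial biogenesis, 0 were higher in pDC and 1, Pprc1, was lower than in CD8+ cDC (median 0.22), and 0 were called against CD11b+ cDC (median -0.09). With spike-in scaling the calls of Cycs (log2 difference -0.90) and Pprc1 (-0.42) against CD8+ cDC were lost. The list with tissue isoforms then held 1 gene higher and 0 lower in pDC than in CD8+ cDC, and 0 higher and 1 lower than in CD11b+ cDC. The biogenesis list held 3 higher and 0 lower against CD8+ cDC, and 0 higher and 2 lower against CD11b+ cDC. Medians of all genes were then 0.66 and -0.33 for these pairs.

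**Figure D5:**
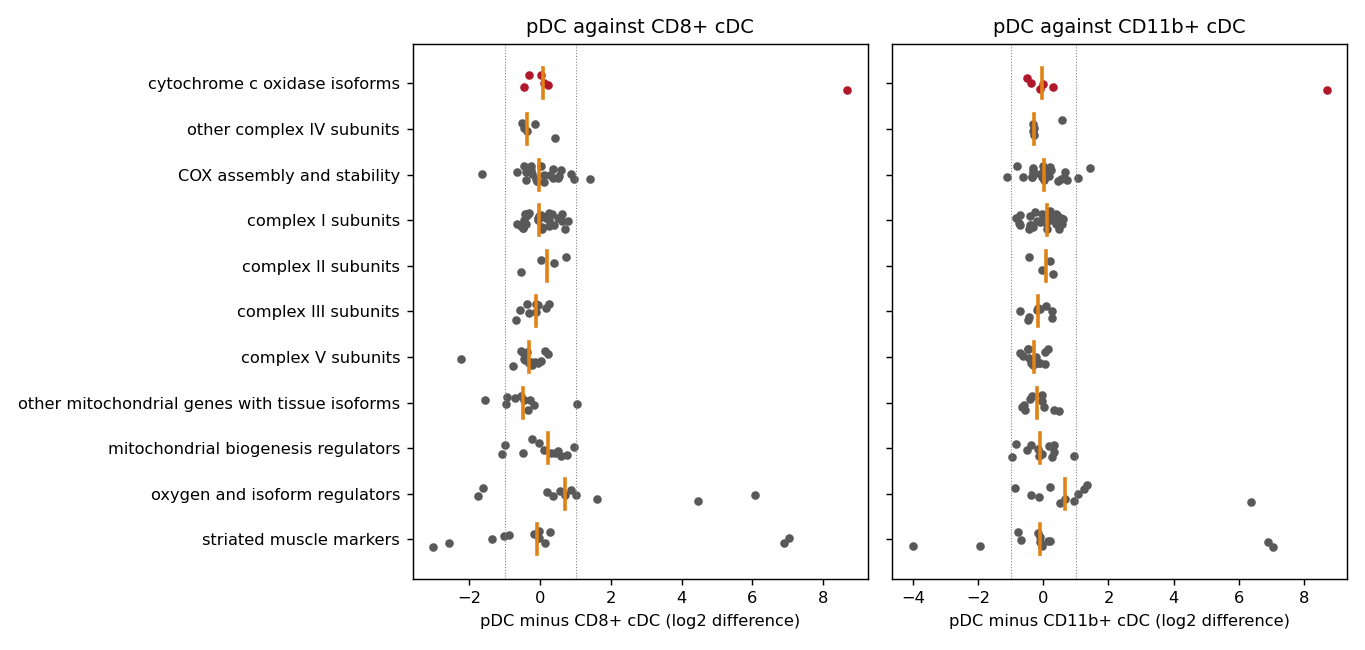
Log2 difference of pDC from CD8+ cDC (left) and from CD11b+ cDC (right) for the isoform genes (red) and 10 related gene lists (grey), 1 point per gene above background on either array, with medians as orange bars and 2-fold as dotted lines. Most respiratory chain genes lie between the dotted lines, and Cox6a2, Cxxc5, Atp2a1 and Pgam2 lie above 6 in both panels.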

How the data were processed

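Each probe set has 1 deposited linear intensity on each array, which the authors made with MAS5, per the submitters' processing notes. No version, scaling or genome build is given in the sources used here. The median signals of the 3 arrays lay between 97.8 and 99.6, and values below background were near-equal. Whether a further step between arrays followed MAS5 is not stated. Biotinylated cRNA was made from 20 ng of total RNA with the standard Affymetrix protocol, per the labels. Amplification of this kind and the 3' bias of the probes affect all 3 arrays.

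Probe sets were named by the platform annotation, using the 34958 with a single gene symbol. A gene with several probe sets was represented by the brightest one (mean log2 over the arrays). Values were floored at background (the 95th percentile of the receptor probe sets on the array where it was highest), and log2 differences were taken in Python 3.11.15 with pandas 2.3.3. No test was run. The calling rule was run on simulated data with planted changes well past 2-fold and noise smaller than the SD between probe sets. That run checked the code and could not judge calls near 2-fold. Alternatives were the 90th and 99th percentile, log2(value + 100), scaling on 9 hybridization spike-in probe sets or 57 oxidative phosphorylation genes, other probe set choices, and 1.5-fold and 4-fold. The members, gene lists and rules were chosen with earlier results of these data known. Named genes were all members, for members past 4-fold the 6 most similar genes with 2 or more probe sets above background and 4 measured neighbours per side, up to 3 per list, direction and pair, Itgam and Cd8a. Values for other genes were chosen after they were seen. Protein sequences were not used here.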

Additional observations from a re-analysis of the deposited data

How the results depend on the processing

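The count of isoform genes higher in pDC was 1 against CD8+ cDC and 1 against CD11b+ cDC under every alternative run. The log2 difference of Cox6a2 from either conventional subset, 8.69 as reported, became 6.81 with background at the 99th percentile (412) and 7.40 with its dimmest probe set. In the other alternatives it lay between 7.89 and 8.98. Scaling on hybridization spike-ins changed the count of isoform genes lower in CD8+ than in CD11b+ cDC to 3, against 0 as reported. Of 210 differences of the other 9 genes recomputed under the alternatives, 205 moved by less than the SD between probe sets of 1 gene. The other 5, all between CD8+ and CD11b+ cDC with spike-in scaling, became -1.17 for Cox4i1, -0.82 for Cox6a1, -1.43 for Cox6b1, -1.08 for Cox7a2 and -0.96 for Cox8a. Many of the 205 could hardly move. Cox4i2, Cox6b2, Cox7a1 and Cox8b lay at the floor, and a changed background level left the bright genes as they were. With spike-in scaling pDC held 78.0% of all calls against CD8+ cDC, 51.9% as deposited, and 33.4% against CD11b+ cDC, 51.2% as deposited. CD8+ cDC held 6.92% of those against CD11b+ cDC, 49.0% as deposited. Scaling on oxidative phosphorylation genes gave 54.5%, 61.4% and 59.7% for the same pairs. Without _x_at, _s_at and _a_at probe sets, Cox8a was below background and Cox4i1 and Cox6a1 had no value. Signal over background limits what can be said of Cox4i2, Cox6b2, Cox7a1 and Cox8b. No paired analysis was possible because each cell type has 1 array.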
